A study of Mus musculus with 12 samples.

Results

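Small nucleolar RNAs (snoRNAs) and the related small Cajal body RNAs (scaRNAs) were measured in mouse embryonic stem cells. The members described here are the 202 genes with the biotype snoRNA or scaRNA whose raw counts summed to at least 120 over 12 total RNA libraries, each gene taken once. They are 202 of the 1551 snoRNA and scaRNA genes listed and of 39179 genes counted. Of the other 1349, 1102 had no count in any library and 247 had some counts but fewer than the minimum. Because the members were selected on counts summed over all groups, membership is a statement on level only. Just inside the minimum stood Snord23 with 120 and Gm27604 with 122 summed counts, and just outside stood Snord45c with 116.

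The libraries fell into 4 groups. BRE-positive (3 libraries) and BRE-negative cells (3 libraries) came from a line carrying BRE-GFP, a green fluorescent reporter driven by a BMP response element, on a mixed CBA and C57Bl/6 background. They were grown in serum (FCS) with Lif on feeder cells, sorted by SSEA1, a stem cell surface antigen, and by GFP, and collected as pairs at 3 times. Smad1/5 KO cells (Smad1/5 -/-, 4 libraries) and Smad1/5 FL cells (Smad1/5 fl/fl, 2 libraries) were of a mixed CD-1, 129/Ola and C57Bl/6 background and were grown in 2i with Lif on gelatin, without feeders and with no sort named. Both groups trace to 2 parental lines, with 2 KO and 1 FL libraries from each, and the labels do not say which library belongs to which line. Smad1 and Smad5 encode the transcription factors that BMP receptors activate.

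Most mammalian snoRNAs are cut out of the introns of host genes, and 2 families are distinguished by short sequence boxes. C/D box RNAs carry the boxes C and D, bind fibrillarin, and mostly guide 2'-O-methylation of ribosomal RNA, whereas H/ACA box RNAs carry the box ACA near their 3' end, bind dyskerin, and mostly guide pseudouridylation. A few, among them U3, U8, U14 and U17, act in the cleavage of precursor ribosomal RNA, and the scaRNAs guide modification of spliceosomal RNAs in the Cajal body. Embryonic stem cells divide fast and make ribosomes at a high rate.

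By name and sequence, 94 members were C/D box RNAs with a median length of 76 bases, 80 were H/ACA box RNAs (median 133.5 bases), 15 were scaRNAs (median 144 bases) and 13 could not be assigned. Together they ranged over 60 to 414 bases. A host gene on the same strand was annotated for 185 members, in 123 different genes, 163 of the members lying in protein-coding and 22 in noncoding hosts. Ribosomal protein genes hosted 39 members, in 23 genes, and Taf1d, which encodes a subunit of the RNA polymerase I selectivity factor, hosted the most (8). Of the 202, 68 overlapped an annotated exon of another gene on the same strand, where reads of the longer transcript could be counted as snoRNA, and 42 had a near-identical annotated copy (at least 95% identity over at least 90% of the length), between which reads could be split. The deposited symbol Snhg7 stands on a 139-base H/ACA RNA that GENCODE calls Snora43 and not on the host transcript of that name. A separate entry with the deposited symbol Snora43, on chromosome 2 and identical to it over 127 bases, was listed with 0 counts.

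The sequences that the results turn on are given from GENCODE M21 (GRCm38, mm10), 5' to 3'. Snora73a and Snora73b are the U17 RNAs of the Rcc1 gene, at chr4:132352775-132352979 and chr4:132352322-132352526 on the minus strand. They are shown because Snora73b was called between the reporter groups and Snora73a was not, although both have 205 bases and 198 of them are the same. Capitals mark the 7 positions at which they differ.
Snora73a: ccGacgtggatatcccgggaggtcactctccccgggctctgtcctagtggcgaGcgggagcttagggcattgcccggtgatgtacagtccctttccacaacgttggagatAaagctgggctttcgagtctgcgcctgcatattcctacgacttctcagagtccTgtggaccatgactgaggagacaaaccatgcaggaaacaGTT
Snora73b: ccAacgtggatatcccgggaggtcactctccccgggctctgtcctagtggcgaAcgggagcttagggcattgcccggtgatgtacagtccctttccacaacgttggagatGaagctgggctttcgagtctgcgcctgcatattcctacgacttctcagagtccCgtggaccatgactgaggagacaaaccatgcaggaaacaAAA
Rnu3a (U3, chr10:40258467-40258680, plus strand) and Scarna6 (chr1:87784556-87784820, plus strand, in an intron of Atg16l1) are other long members that were lower in BRE-positive cells. In these and the following sequences capitals mark the box C motif TGATGA starting within the first 20 bases, the box D motif CTGA starting within the last 20 bases, or, in H/ACA RNAs, ACA near the 3' end; where a box was not found in its window it is not marked.
Rnu3a: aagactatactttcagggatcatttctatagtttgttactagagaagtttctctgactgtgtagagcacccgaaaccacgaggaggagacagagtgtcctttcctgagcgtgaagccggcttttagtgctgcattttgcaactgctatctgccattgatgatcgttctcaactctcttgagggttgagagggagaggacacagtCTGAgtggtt
Scarna6: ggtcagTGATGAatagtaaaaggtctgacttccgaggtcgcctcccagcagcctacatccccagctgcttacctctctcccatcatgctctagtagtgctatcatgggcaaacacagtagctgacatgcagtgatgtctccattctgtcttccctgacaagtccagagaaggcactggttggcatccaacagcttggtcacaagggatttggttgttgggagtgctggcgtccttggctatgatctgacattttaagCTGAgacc
Gm22077 (chr15:80080251-80080343, minus strand) and Snord83b (chr15:80078498-80078591, minus strand) lie in Rpl3, and Gm23130 (chr10:23786470-23786543, minus strand) and Snora33 (chr10:23785347-23785475, minus strand) lie in Rps12. They are shown as members that were higher in Smad1/5 KO cells. Gm22077 belongs to the unassigned RNAs, so no box is marked in it.
Gm22077: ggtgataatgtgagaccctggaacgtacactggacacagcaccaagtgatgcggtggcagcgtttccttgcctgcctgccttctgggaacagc
Snord83b: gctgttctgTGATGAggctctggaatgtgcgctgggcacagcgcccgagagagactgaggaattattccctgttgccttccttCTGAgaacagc
Gm23130: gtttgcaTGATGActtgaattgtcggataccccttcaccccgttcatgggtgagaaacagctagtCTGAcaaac
Snora33: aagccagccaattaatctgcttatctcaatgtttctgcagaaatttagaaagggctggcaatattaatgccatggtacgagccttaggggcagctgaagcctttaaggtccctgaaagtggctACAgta
Snord69 (chr14:31014287-31014366, minus strand, in Gnl3) and the pair Gm26457 (chr1:63178677-63178754, plus strand) and Snora41 (chr1:63179004-63179135, plus strand) of Eef1b2 were among the members most strongly higher in BRE-negative than in FL cells.
Snord69: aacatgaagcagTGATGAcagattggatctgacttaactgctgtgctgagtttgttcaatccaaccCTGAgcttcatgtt
Gm26457: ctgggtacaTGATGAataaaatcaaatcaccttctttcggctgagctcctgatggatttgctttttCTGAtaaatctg
Snora41: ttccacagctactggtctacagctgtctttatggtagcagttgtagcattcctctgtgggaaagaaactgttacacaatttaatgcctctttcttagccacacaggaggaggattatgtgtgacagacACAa
Gm24564 (chr12:109631074-109631148), Gm23600 (chr12:109643748-109643818), DQ267102 (chr12:109656345-109656416) and Gm23787 (chr12:109684962-109685034), all on the plus strand, stand for the imprinted cluster that was nearly without reads in the reporter line.
Gm24564: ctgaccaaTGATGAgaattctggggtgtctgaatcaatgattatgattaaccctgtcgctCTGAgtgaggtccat
Gm23600: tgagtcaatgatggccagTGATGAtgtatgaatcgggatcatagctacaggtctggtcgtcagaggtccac
DQ267102: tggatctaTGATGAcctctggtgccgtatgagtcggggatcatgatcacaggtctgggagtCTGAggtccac
Gm23787: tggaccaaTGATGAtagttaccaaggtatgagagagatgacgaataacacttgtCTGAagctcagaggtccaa
Gm24598 (chrX:64496584-64496657, plus strand) was the member outside chromosome 12 that followed the cluster, and Gm24895 (chr12:109646129-109646202, plus strand) is the gene of the cluster that resembles it. Capitals in this pair mark the bases that differ, T1C and A24G, counted from the 5' end with the Gm24598 base first.
Gm24598: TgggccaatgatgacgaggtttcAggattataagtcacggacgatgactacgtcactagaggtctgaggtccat
Gm24895: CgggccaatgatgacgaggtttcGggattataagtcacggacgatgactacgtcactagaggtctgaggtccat

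Both box searches were made on the RNA strand only. TGATGA started within the first 20 bases of 67.4% and CTGA within the last 20 bases of 83.4% of the 463 annotated snoRNA and scaRNA transcripts of at most 100 bases. ACA lay 3 to 9 bases from the end of 64.4% of the 1031 transcripts over 100 and up to 150 bases. Of the 11 cluster members on chromosome 12, 8 held TGATGA and 8 held CTGA in these windows. Members without a Snord, Snora or Scarna name were classed partly by these boxes, so the boxes are no finding about the classes.

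The libraries held 25862573 to 37319846 counts, of which the members took 0.116% to 0.242%. All 8 stem cell markers (Pou5f1, Nanog, Sox2 and others) were found, and they summed to 4051 to 5139 CPM (counts scaled by library total and TMM factor) across the 12 libraries. Within that list Zfp42 stood at 121 to 127 CPM in BRE-positive, 112 to 122 CPM in BRE-negative, 565 to 594 CPM in KO and 618 to 626 CPM in FL libraries. Klf4 stood at 397 to 494 CPM in BRE-positive, 358 to 540.1 CPM in BRE-negative, 73.6 to 94.8 CPM in KO and 100.5 to 118.97 CPM in FL libraries, and Nanog at 406 to 433 CPM in KO and 627 to 644 CPM in FL libraries. The 8 feeder fibroblast markers summed to 24.1 to 89.1 CPM in BRE-positive, 41.3 to 99.7 CPM in BRE-negative, 3.82 to 5.14 CPM in KO and 4.12 to 5.84 CPM in FL libraries. The 4 endothelial markers summed to 47.9 to 70.2 CPM in BRE-positive, 51.0 to 56.8 CPM in BRE-negative, 65.2 to 106 CPM in KO and 103 to 134 CPM in FL libraries. Pecam1 carried that sum, at 44.0 to 131 CPM over the 12 libraries, while Cdh5 stood at no more than 0.270 CPM and Kdr at no more than 1.19 CPM in any library. The 3 blood markers summed to at most 0.642 CPM in any library. Smad1 stood at 12.3 to 17.4 CPM in KO and at 19.1 and 18.04 CPM in FL libraries, and Smad5 at 25.1 to 34.6 CPM in KO and at 31.3 and 33.7 CPM in FL libraries. These counts cover whole genes, exons outside a deletion included, so they do not check the knockout. Reporter collection 1 stood apart from collections 2 and 3, and KO libraries 1 and 2 stood apart from KO libraries 3 and 4.

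On the deposited TPM scale, which is per length, levels of the members spanned a wide range. The 5 members with the most counts held 39.6% of all member counts. Gm24357, a C/D RNA of Taf1d, had the highest mean of the 4 group means, at 2083 ± 494 TPM in BRE-positive, 1920 ± 540 TPM in BRE-negative (SD, n = 3 each), 1661 ± 463 TPM in KO (n = 4) and 1337 ± 205 TPM in FL cells (n = 2). It was followed by Snhg7 (the Snora43 RNA), Gm23455 of Taf1d, Snora73b, Scarna2, Scarna13, Rnu3a, Scarna10, Gm23130 and Gm26448. The first 2 in that order differed by less than 1 SD in 3 of the 4 groups. Snora73a stood at 32.8 to 62.8 TPM in the 12 libraries, far under its near-copy Snora73b, at 346 to 2477 TPM. The assignment of reads that fit both copies is not stated.

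The first comparison set cells in which the BMP reporter was on against cells of the same cultures in which it was off. Some snoRNAs and scaRNAs were lower in BRE-positive cells: Snora73b, an H/ACA RNA of precursor cleavage, Rnu3a (U3), Scarna6, Scarna10, Scarna13 and 10 others fell, by 0.25 to 0.98 on the log2 scale. With the collection pair as a block, edgeR's quasi-likelihood test called 15 of the 189 members tested lower and 0 higher at an adjusted p under 0.05. Of all 15435 genes tested, 2.97% were called, 1.02% lower and 1.96% higher. Without adjustment, 33 members were lower and 5 higher at p under 0.05 by edgeR, against 1286 lower and 1531 higher of all genes tested. DESeq2 called 10 members lower and 0 higher, against 120 lower and 208 higher of all genes. The median log2 fold change was -0.10 over the members and -0.00 over all genes. No gene of any kind passed in the fit without the pair block, in 1 fit of all 12 libraries or with limma on the TPM values, where the members' median log2 difference was 0.01 and that of all genes 0.07. In total RNA of a sorted population fewer cells of a type and less RNA per cell cannot be told apart.

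Snora73b had 110.4, 30.4 and 23.3 CPM in BRE-positive cells of collections 1, 2 and 3, against 201, 56.6 and 55.8 CPM in BRE-negative cells. Collection 1 was high in both groups, so the groups overlapped, and within each collection the positive cells had 0.549, 0.537 and 0.417 of the level of the negative cells. Its log2 fold change was -0.98 ± 0.07 (SE, edgeR adjusted p = 1.54e-05), while that of its near-copy Snora73a was -0.21 (edgeR adjusted p = 0.551) at 2.98, 4.24 and 2.23 CPM in BRE-positive and 3.98, 3.57 and 3.41 CPM in BRE-negative cells. The difference between both copies was not tested. Gm26448, a 203-base H/ACA RNA in Rpsa that shares 180 bases with Snora73b, had 52.1, 17.1 and 15.7 CPM in BRE-positive cells, against 84.7, 35.8 and 32.1 CPM in BRE-negative cells (log2 fold change -0.90 ± 0.08, SE, edgeR adjusted p = 7.36e-05).

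Rnu3a, the U3 RNA, showed the widest gap between collections. Its raw counts were 7542, 844 and 539 in BRE-positive cells and 13110, 1016 and 1064 in BRE-negative cells, so that collection 1 exceeded both others by about an order of magnitude in both groups. Within collections the positive cells had 0.641, 0.684 and 0.572 of the CPM of the negative cells (log2 fold change -0.65 ± 0.06, SE, edgeR adjusted p = 0.000170). Rnu3b1 and Rnu3b3, U3 copies that are identical to each other, were not called (log2 fold change -0.34 and 0.44). Reads of these copies cannot be told apart.

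Among the scaRNAs, 5 of 15 were lower. Scarna6 had 28.3, 6.18 and 7.89 CPM in BRE-positive cells and 46.4, 14.3 and 15.03 CPM in BRE-negative cells (log2 fold change -0.90 ± 0.09, SE, edgeR adjusted p = 0.000295). Gm25395, its neighbour in Atg16l1, followed with 7.05, 2.89 and 3.70 CPM against 10.5, 4.59 and 5.86 CPM in BRE-negative cells. Scarna10 had 138, 43.6 and 78.9 CPM in BRE-positive cells and 155, 90.3 and 110.3 CPM in BRE-negative cells (log2 fold change -0.54 ± 0.11, SE). Scarna13 changed least of the 15 (-0.25 ± 0.06, SE, edgeR adjusted p = 0.0429), and Gm22442 fell by 0.54 with an adjusted p of 0.0498. Scarna2, the longest member, had 196, 199.5 and 174 CPM in BRE-positive and 248, 185 and 181 CPM in BRE-negative cells and was not called, nor was Gm22009 (log2 fold change -0.08 and -0.04).

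The remaining 7 were Mir1949 (log2 fold change -0.88), Gm24336 (-0.73), Gm22711 (-0.64), Snora74a (-0.61), Gm25835 (-0.60), Gm25117 (-0.42) and Snora57 (-0.41). Mir1949, which carries the biotype snoRNA despite its name, shares the host Gm28285 with Snora74a. Of the 15 only Gm22711 had non-overlapping groups, as did 7.22% of all genes tested, with 2.36, 2.19 and 1.397 CPM in BRE-positive cells and 3.76, 3.18 and 2.44 CPM in BRE-negative cells. Each of the 15 was lower in the positive cells of all 3 collections, as were 65 of the 189 members and 22.7% of all genes tested. The median ratio of positive to negative cells over the 15 was 0.745 in collection 1, 0.630 in collection 2 and 0.572 in collection 3. Without collection 1, 22 of 188 members were lower and 1 higher, while 1110 of all 15441 genes tested were lower and 1115 higher. The log2 fold changes were then -1.05 for Snora73b, -1.04 for Gm26448, -0.66 for Rnu3a, -1.06 for Scarna6 and -0.75 for Scarna10.

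**Figure D1:**
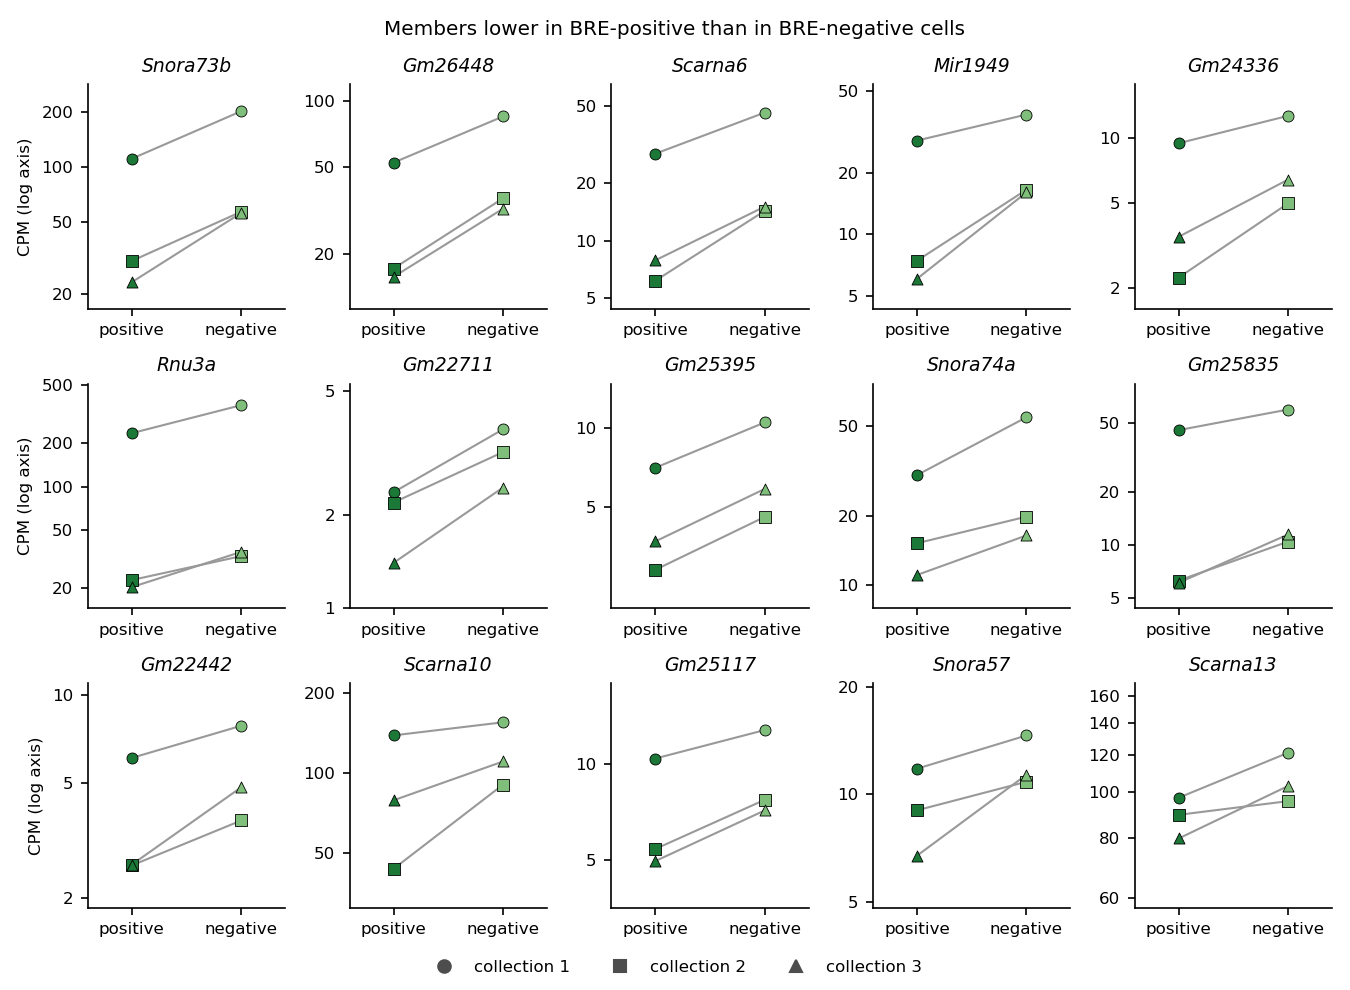
CPM (log axis) of the 15 members that were lower in BRE-positive cells, with 1 panel a member. Each line joins the positive and negative cells of 1 collection; every line descends towards the positive cells, and collection 1 (circles) lies above the other collections in both groups.

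The called members differed from the rest in length. All 15 had 133 to 325 bases, with a median of 196. The fewest counts among them were those of Gm22711, with 37 to 135 raw counts in the reporter libraries. Of the short members, Snord37 (64 bases) had 8 to 24 counts there and Gm24357 (74 bases) 1307 to 2362. The part of count depth in which members were called was not tested. Of the 78 tested members of at most 100 bases 0 were called by edgeR (8 lower and 2 higher at an unadjusted p under 0.05), against 7 of 92 over 100 and up to 150 bases and 8 of 19 longer ones. The median log2 fold change was -0.08, -0.08 and -0.22 in these length ranges. Across all 189 tested members the Spearman correlation of log2 fold change and length was -0.18, given as a description, since members share hosts and libraries. By family the 15 were 6 H/ACA RNAs, 5 scaRNAs, 2 C/D RNAs and 2 unassigned. Without collection 1, 2 of 77 members of at most 100 bases were lower and 1 higher, and 12 of 92 over 100 and up to 150 bases were lower. So were 8 of 19 longer ones and 5 of 15 scaRNAs. In that fit 1110 of all 15441 genes tested were lower and 1115 higher.

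**Figure D2:**
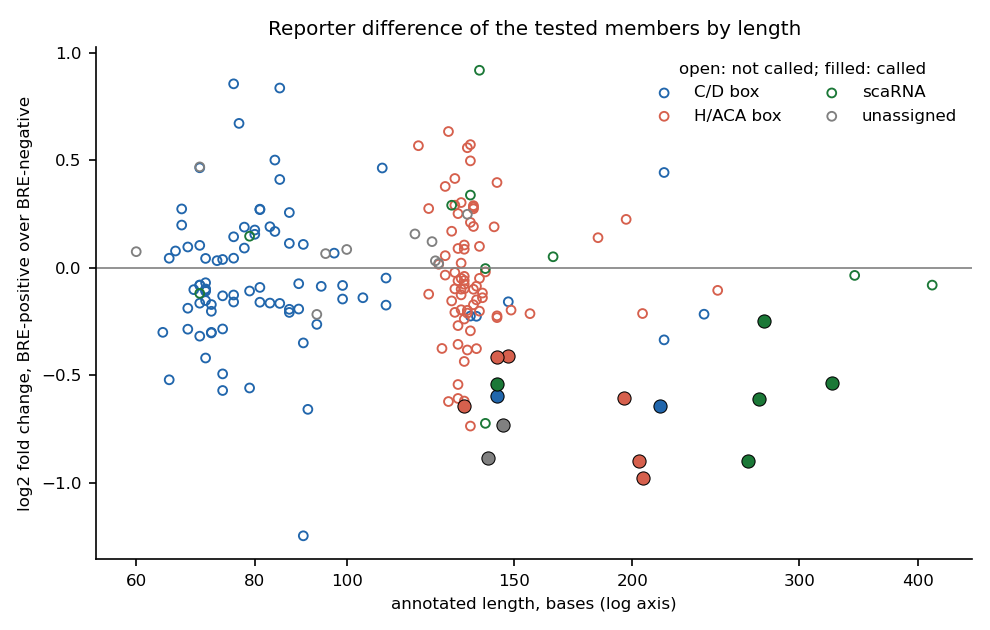
Log2 fold change between BRE-positive and BRE-negative cells against annotated length (log axis) for the 189 tested members, coloured by box class. Filled points were called; they lie between 133 and 325 bases, and no filled point lies among the short C/D RNAs.

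The host genes were not called with them. Of the 15, 9 had a tested host, and 0 of these hosts were called, with a median log2 fold change of -0.03. Rcc1, the host of Snora73b and regulator of the GTPase Ran, stood at -0.16, and Rpsa, the host of Gm26448 and a ribosomal protein gene, at -0.13. Across 173 members with a tested host the Spearman correlation of member and host log2 fold changes was 0.27, as a description. Other short noncoding RNAs moved in part the same way: 5 of 31 spliceosomal and other snRNAs were lower (median -0.20) and 2 of 16 genes of the class misc_RNA (median -0.46), while 0 of 44 miRNA genes were called by edgeR (median 0.13, with 6 higher and 3 lower at an unadjusted p under 0.05). Among protein-coding genes 44 of the 1365 shortest were lower and 7 higher, and 3 of the 1364 longest were lower and 132 higher. Without collection 1, 8 of 29 snRNAs, 4 of 16 misc_RNA genes and 1 of 42 miRNA genes were lower, and 4 miRNA genes were higher. Of 8 tested hosts of the 15, 1 was higher and 2 lower in that fit, as were 1115 and 1110 of all 15441 genes tested. The part of transcript length or of the RNA preparation in the members' difference was not tested.

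The members lower in BRE-positive cells also differed more between libraries of 1 group than the other members did, by median. In BRE-negative cells, collection 1 exceeded the mean of collections 2 and 3 by a median of 2.24 times for the 15, and by 1.17 times for the other members. In BRE-positive cells the medians were 2.34 and 1.16. Among the KO libraries, which come from other cells, the mean of libraries 1 and 2 exceeded that of libraries 3 and 4 by a median of 2.39 times for the 15, with 14 above 1, and stood at 0.939 of it for the other members. Snora73b, for example, had 161, 169, 45.4 and 73.4 CPM in KO libraries 1 to 4. Both FL libraries, at 126 and 133 CPM, were close to each other. Large ratios were not confined to the 15. Among the other members they reached 2.70 in BRE-negative, 3.78 in BRE-positive and 5.20 in KO libraries. Members over 150 bases, called or not, had medians of 1.77, 1.82 and 1.15 in these groups.

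The second comparison asked what the loss of Smad1 and Smad5 changes in 2i medium. A few snoRNAs from ribosomal protein genes were higher in KO than in FL cells, Gm22077 and Snord83b of Rpl3, Gm23130 and Snora33 of Rps12, and Gm24044 of Rpsa, by 0.61 to 0.83 on the log2 scale. The edgeR test called 5 of 196 tested members higher and 0 lower, while 5.03% of all 15933 genes tested were called, 1.85% higher and 3.18% lower. At an unadjusted p under 0.05, 42 members were higher and 1 lower, against 1765 and 1881 of all genes tested. DESeq2 called 16 members higher and 0 lower, against 653 and 845 of all genes. The share called by edgeR was near the background, whereas the sign leaned to 1 side. A positive log2 fold change was found in 76.5% of the members, against 51.7% of all genes, with medians of 0.29 and 0.01.

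Gm22077 had 5.56, 7.16, 7.24 and 7.54 CPM in KO libraries 1 to 4, against 3.59 and 4.18 CPM in FL libraries (log2 fold change 0.83 ± 0.18, SE, edgeR adjusted p = 0.0461). Snora33, an H/ACA RNA, had 10.5, 13.2, 9.74 and 11.04 CPM in KO and 5.99 and 6.76 CPM in FL libraries (0.81 ± 0.16, SE, edgeR adjusted p = 0.0359). In both, every KO library lay above both FL libraries. Snord83b, a C/D RNA, had 6.64, 6.12, 6.33 and 7.74 CPM in KO and 3.44 and 4.31 CPM in FL libraries (0.79 ± 0.18, SE, edgeR adjusted p = 0.0482). Gm23130 had 14.7, 16.4, 17.3 and 18.4 CPM in KO and 8.78 and 11.04 CPM in FL libraries (0.75 ± 0.15, SE, edgeR adjusted p = 0.0328). Gm24044 was the tightest, with 11.6, 11.5, 11.6 and 12.8 CPM in KO and 7.68 and 7.87 CPM in FL libraries (0.61 ± 0.12, SE, edgeR adjusted p = 0.0342). None of these groups overlapped, as was the case for 34.7% of all genes tested.

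The hosts Rpl3, Rps12 and Rpsa, with log2 fold changes of 0.08, 0.24 and 0.10, were not called, and 4 of the 5 members overlap an annotated exon. No call was made without FL library 1, FL library 2, KO library 3 or KO library 4, 1 call was made without KO library 2, and 8 members were called higher and 1 lower without KO library 1. By length, 79 of 87 tested members of at most 100 bases had a positive log2 fold change, with a median of 0.40 and 3 called. Their summed level was 256, 273, 305 and 305 CPM in KO libraries 1 to 4 and 198 and 230 CPM in FL libraries, so every KO library lay above both FL libraries. Members over 150 bases summed to 921, 894, 545 and 629 CPM in KO libraries and to 729 and 801 CPM in FL libraries, which lie inside the KO range.

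**Figure D3:**
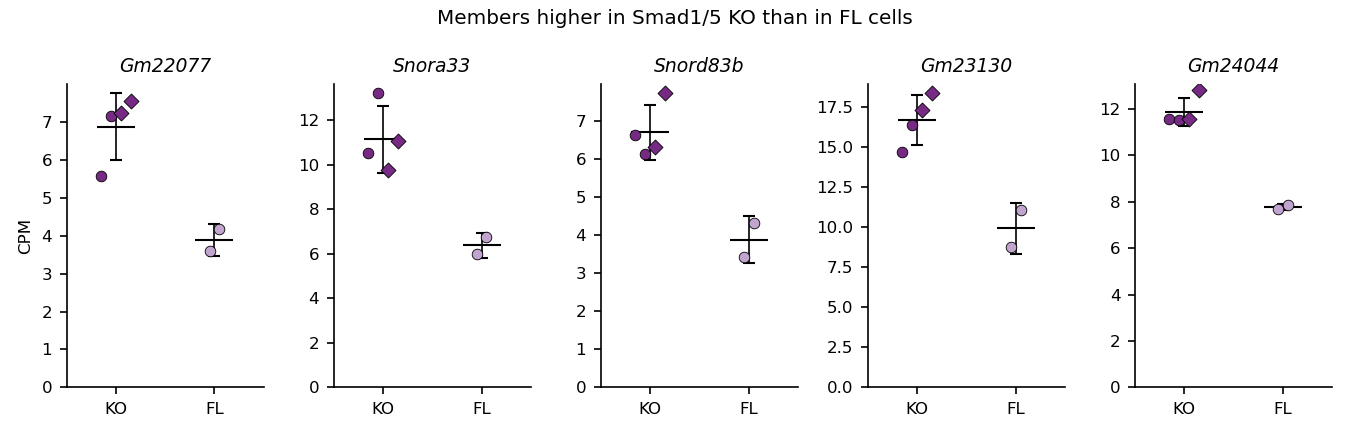
CPM of the 5 members called higher in Smad1/5 KO cells, with KO libraries 1 and 2 as circles, KO libraries 3 and 4 as diamonds and FL libraries as pale circles; bars give the mean and SD. In each panel the 4 KO libraries lie above both FL libraries.

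KO libraries 3 and 4 weighed on this comparison. In a fit without KO libraries 1 and 2, chosen after seeing the data, 29 of 192 members were higher and 20 lower in KO than in FL cells. Of all 15664 genes tested in that fit, 1546 were higher and 1746 lower. The lower members included 12 of the 15 that were lower in BRE-positive cells, and the median log2 fold change of those 15 was then -0.94. In the fit without KO libraries 3 and 4, also chosen after seeing the data, 0 of 191 members were called by edgeR (33 at an unadjusted p under 0.05). Of all 15536 genes tested there, 26 were higher and 63 lower (2834 at an unadjusted p under 0.05). The median of those 15 members was 0.24. The median over all members was 0.36 in the fit without libraries 1 and 2 and 0.28 in the fit without libraries 3 and 4. Both of these fits use the same 2 FL libraries. Whether the pairs are the parental lines is not given, so line and library pair cannot be told apart.

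The third comparison set BRE-negative cells against Smad1/5 FL cells, and it has no single variable: line, strain, medium, feeder cells and sorting differ together and cannot be told apart. The feeder markers, Zfp42 and Klf4, given above, also differ between these groups, and their part in the results was not tested. Many snoRNAs were higher in BRE-negative cells, among them Snord69 of Gnl3 and Snora41 of Eef1b2, while a block of imprinted C/D snoRNAs was nearly without reads there. The edgeR test called 65 of 201 tested members higher and 16 lower, against 45.7% of all 16360 genes called, 22.3% higher and 23.4% lower. With 1 FL library left, the median log2 fold change over the members was 0.53 without FL library 1 and 0.72 without FL library 2 (0.01 over all genes in both). Without BRE-negative library 1, 62 of 197 members were higher and 25 lower, against 4057 and 4190 of all 15960 genes tested. With BRE-positive in place of BRE-negative cells, 67 of 200 members were higher and 20 lower, against 4103 and 4134 of all 16489 genes tested. Over the 190 members left without the imprinted block and without Gm24598 of chromosome X, the median log2 fold change was 0.69. Of these members 78.9% were above 0, against a median of -0.00 and 49.7% for all genes.

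The imprinted block lies between Meg3 and Mirg on chromosome 12 (chr12:109541001-109749460), where the maternally expressed noncoding RNAs Meg3, Rian and Mirg are made and tandem, mostly C/D, snoRNAs are made from the introns of Rian and its downstream transcripts. These C/D RNAs are known as orphans, without an established ribosomal target. Of 23 annotated snoRNA genes in the interval 11 were members, 4 others had counts under the minimum and 8 had none. Summed over the 11 members, the counts were 3, 6 and 1 in BRE-positive libraries, 3, 0 and 5 in BRE-negative libraries, 339, 321, 485 and 381 in KO libraries and 215 and 296 in FL libraries. BRE-negative cells together had 8 counts against 511 in FL cells, which is 89.1-fold lower after scaling to the library totals (exact 95% interval 44.9 to 208, counting error only).

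Single members showed the same split. Gm23600 had 1, 1 and 1 counts in BRE-positive and 1, 0 and 1 in BRE-negative libraries, against 50, 48, 82 and 51 in KO and 32 and 48 in FL libraries. Gm24564 had 35 to 52 counts in KO libraries and 31 and 43 in FL libraries, and at most 2 in any reporter library. For the 5 members Gm23787, Gm22205, Gm23736, Gm25856 and Gm23347 the BRE-negative libraries held 0 counts, and taking 3 counts over the group as the floor they were at least 31.2-fold, 21.4-fold, 19.1-fold, 14.9-fold and 11.2-fold lower than in FL cells. Of the 11, 10 were tested and all 10 were called lower (edgeR adjusted p = 0.000262 for Gm23600). Gm27604 had 0 counts in the reporter libraries and 18 in both FL libraries together, and did not pass the filter of this fit.

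Rian, the annotated host of 5 of the 11, was also called lower, whereas the other 6 lie downstream of its annotated end. It had 1.99, 6.77 and 5.78 CPM in BRE-positive libraries, 2.12, 4.59 and 3.41 CPM in BRE-negative libraries, 694, 520.4, 697 and 680.4 CPM in KO libraries and 374 and 412 CPM in FL libraries. Meg3 stood at 0.869 to 2.73 CPM in the 6 reporter libraries, against 117 to 175 CPM in KO and 74.3 and 95.9 CPM in FL libraries. Within the Smad1/5 cells all 11 members had positive log2 fold changes of KO over FL, with a median of 0.66, and 0 were called by edgeR (4 at an unadjusted p under 0.05), while Rian was called (0.72 ± 0.13, SE, edgeR adjusted p = 0.0238).

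Gm24598, annotated on chromosome X, behaved like the block. It had 1, 1 and 0 counts in BRE-positive, 1, 0 and 1 in BRE-negative, 201, 163, 212 and 197 in KO and 111 and 126 in FL libraries, which makes it 165-fold lower in BRE-negative than in FL cells (exact 95% interval 45.3 to 1373, counting error only). Its 74 bases differ from those of Gm24895, a gene of the chromosome 12 block, at the 2 positions shown above. Gm24895 itself was listed with 0 counts in all 12 libraries. The assignment of reads that fit both genes is not stated, so which gene made the RNA cannot be told apart.

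**Figure D4:**
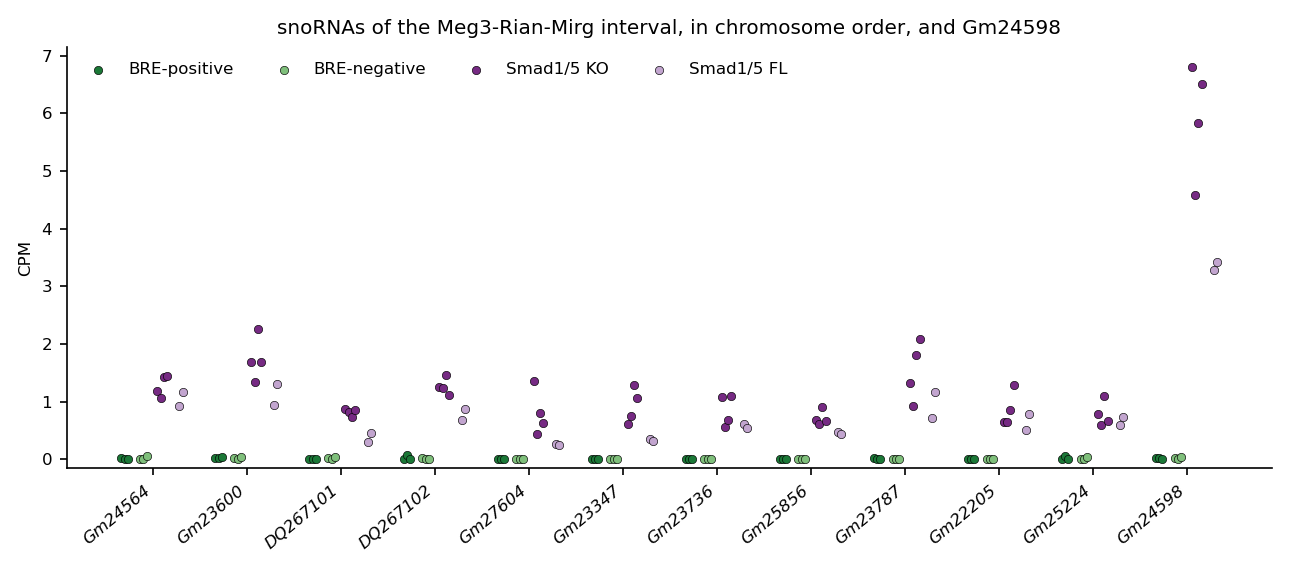
CPM of the 11 snoRNAs between Meg3 and Mirg, in chromosome order, and of Gm24598 in each library of the 4 groups. Reporter libraries lie at or near 0 for each of them, KO and FL libraries above.

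The other 5 members called lower in BRE-negative cells were Gm25129 (Snhg11 intron), Gm23105 (Pawr intron), Snora78, Snord13 and Snora57. Snora78, an H/ACA RNA in the noncoding host Snhg9, had 17.5, 10.97 and 10.3 CPM in BRE-negative and 36.3 and 33.3 CPM in FL libraries (log2 fold change -1.43 ± 0.22, SE, edgeR adjusted p = 0.00108), with its host at -0.09. Gm25129 had 0.892, 0.590 and 0.569 CPM in BRE-negative and 2.43 and 4.02 CPM in FL libraries (log2 fold change -2.22 ± 0.36, SE), and its host Snhg11 was also lower (-1.56). Snord13, the U13 RNA, which guides acetylation of ribosomal RNA in human cells and is made from a gene of its own, had 2.06, 1.61 and 0.904 CPM in BRE-negative and 3.23 and 3.04 CPM in FL libraries (-1.03 ± 0.35, SE, edgeR adjusted p = 0.0392), and it was called in 7 of 15 alternatives.

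Among the rises, Snord69, a C/D RNA in the nucleostemin gene Gnl3, had 11.6, 11.7 and 10.4 CPM in BRE-negative and 1.99 and 2.28 CPM in FL libraries (log2 fold change 2.39 ± 0.21, SE, edgeR adjusted p = 6.82e-05). Snora41, an H/ACA RNA in the elongation factor gene Eef1b2, had 8.69, 7.99 and 7.36 CPM in BRE-negative and 1.33 and 2.06 CPM in FL libraries (2.23 ± 0.27, SE). Its neighbour in the same gene, the C/D RNA Gm26457, had 3.32, 3.93 and 3.08 CPM in BRE-negative and 0.712 and 0.678 CPM in FL libraries (2.30 ± 0.30, SE). For these 3 members the groups did not overlap, as was the case for 67.4% of all genes tested. In BRE-positive cells Snord69 stood at 11.7, 13.3 and 12.7 CPM. The other large rises were Gm26265 (2.73), Gm24608 (2.48), Snord82 (2.22), Snord59a (2.15), Gm24119 (2.13), Snora31 (2.09) and Gm25500 (1.96), of which the first 4 stood at no more than 1.37 CPM in any library.

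Of 40 hosts with at least 2 tested members, all members were higher in 9 hosts, some in 14 and none in 17. All 3 members in Gnl3, all 4 in Nop58, which encodes a core C/D protein, all 3 in Ncl, the nucleolin gene, both in Eef1b2 and 7 of 8 in Taf1d were higher. These 5 hosts were higher too, with log2 fold changes of 0.86 for Gnl3, 0.45 for Nop58, 1.12 for Ncl, 0.68 for Eef1b2 and 1.11 for Taf1d. Both members were also higher in Cnot1, Rps3a1, Rpl23 and Tsr1. Of these hosts Cnot1 (0.55) and Rps3a1 (1.27) were called higher, while Rpl23 (0.03) and Tsr1 (0.15) were not called. In other hosts, 3 of 5 members were higher in Rpl4, both in Rpl3, 2 of 3 in Rps12, 1 of 3 in Rpsa and 0 each of 3 in Wdr43, 2 in Rcc1 and 2 in Atg16l1. Atg16l1 itself was higher (0.81), as was Rpl3 (0.56), whereas Rpl4 and Rps12 were not called (0.13 and -0.01). Of 39 members in ribosomal protein genes 20 were higher and 0 lower (median log2 fold change 0.92). Over all genes tested 22.3% were higher and 23.4% lower. Of the 65 higher members 62 had a tested host, and 30 of these hosts were called higher, 0 lower and 32 not called. Among members that overlap an annotated exon, 29 of 67 were higher and 2 lower (median log2 fold change 0.80). Without such overlap 36 of 134 were higher and 14 lower (median 0.48). The part of host reads counted as snoRNA was not tested. Across 174 members with a tested host outside the imprinted block the Spearman correlation of both log2 fold changes was 0.43, as a description, with several members sharing a host. By class, 35 of 93 C/D RNAs, 25 of 80 H/ACA RNAs and 2 of 15 scaRNAs were higher, against 22.3% of all genes tested.

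**Figure D5:**
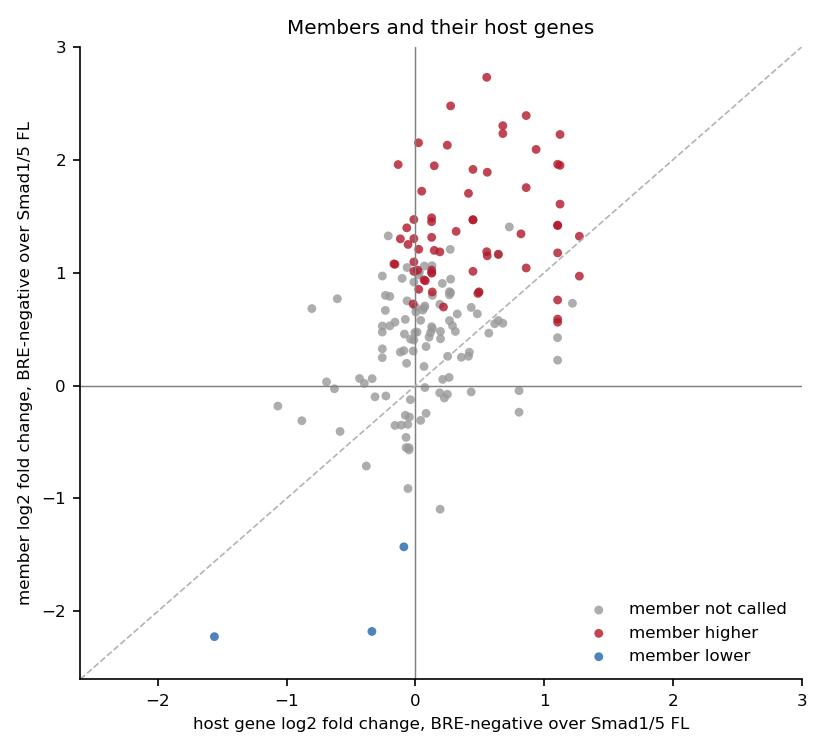
Log2 fold change of BRE-negative over Smad1/5 FL cells for 174 members (vertical axis) and their host genes (horizontal axis), without the imprinted block; the dashed line marks equal change. Most members called higher (red) lie above the line, with hosts near or above 0.

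The RNAs of ribosomal RNA processing did not move as a class. Rnu3a and Snora73b were lower in BRE-positive than in BRE-negative cells, Snord14a (U14, in Rps13) was higher in BRE-negative than in FL cells (1.72 ± 0.29, SE, edgeR adjusted p = 0.00181) and Snord13 lower there, while Snord118 (U8) passed in none of the comparisons. Snord14a had 5.60, 7.76 and 5.09 CPM in BRE-negative and 1.54 and 2.17 CPM in FL libraries, with its host at 0.05. Snord118 stood at 1.46, 0.891 and 0.378 CPM in BRE-positive, 1.59, 0.655 and 1.004 CPM in BRE-negative, 1.69, 1.43, 0.605 and 1.16 CPM in KO and 1.22 and 0.922 CPM in FL libraries, so the groups overlapped throughout. The other imprinted snoRNAs among the members, Snord64 and Snord107 on chromosome 7, were present in all groups, in contrast with the chromosome 12 block: Snord64 stood at 2.76 to 3.99 CPM in BRE-positive, 2.68 to 3.21 CPM in BRE-negative, 3.08 to 6.77 CPM in KO and 2.73 and 4.45 CPM in FL libraries. Neither was called in a comparison. Of the scaRNAs not yet described, Gm22767 (0.997) and Gm22728 (1.37) were higher in BRE-negative than in FL cells, and Gm23119, Scarna17, Gm24289, Scarna3a, Gm23557 and Scarna9 passed in none of the comparisons.

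Genes for the proteins of these particles changed little between the reporter groups, where 1.02% of all genes tested were lower and 1.96% higher in BRE-positive cells. Of 30 genes for core proteins, assembly factors and trimming enzymes, Fbl, which encodes the C/D methyltransferase fibrillarin, was the 1 called lower in BRE-positive cells, at 50.1 ± 5.57 CPM against 61.6 ± 4.77 CPM in BRE-negative cells (SD, n = 3 each), a log2 difference of -0.29 ± 0.06 (SE) with an edgeR adjusted p of 0.0143. In KO cells Nolc1, a Cajal body and nucleolar assembly factor, was the 1 called higher (0.30, edgeR adjusted p = 0.0330), and 25 of the 30 had positive log2 fold changes. Of all genes tested there, 1.85% were higher and 3.18% lower, and 51.7% had a positive log2 fold change. In BRE-negative against FL cells 7 of the 30 were higher and 5 lower, while 22.3% of all genes tested were higher and 23.4% lower. Naf1 (0.87), Papd5 (0.76) and Nop58 (0.45) were among the higher. Dkc1 (-0.63), the dyskerin gene, Zcchc7 (-0.72) and Exosc10 (-0.56) were among the lower. Of 12 tested genes on a list of mostly noncoding hosts, Snhg11 was the 1 called higher in BRE-positive than in BRE-negative cells (0.43), against 1.96% of all genes. In KO against FL cells 4 of the 12 were higher, Snhg5 (0.71), Snhg12 (0.66), Rian and Meg3 (0.82), against 1.85% of all genes. By edgeR 0 of the 12 were lower (0 at an unadjusted p under 0.05), against 3.18% of all genes. Without KO libraries 3 and 4 none of Snhg5 (0.62), Snhg12 (0.64), Rian (0.61), Meg3 (0.61) and Nolc1 (0.25) was called, at edgeR adjusted p of 0.0815, 0.0817, 0.109, 0.130 and 0.132, while all were called without KO libraries 1 and 2. Between BRE-negative and FL cells 5 of the 12 were higher, led by Snhg6 (1.22) and Gas5 (1.13). In the same comparison 3 were lower, Rian, Meg3 and Snhg11, while 22.3% of all genes tested were higher and 23.4% lower.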

How the data were processed

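Total RNA of 12 libraries was sequenced after removal of ribosomal RNA, with a stranded kit, per the labels' protocols. The authors deposited raw counts per gene and TPM values (a signal normalized per length and per library). The submitters' processing notes name STAR 2.4.1d, an aligner, and featureCounts 1.4.6, a read counter, along with CASAVA 1.8.2, FastQC 0.11.3 and DESeq2 1.6.3; they list GRCm38.p4 and mm10 as builds. Annotation release, strand setting and treatment of reads that fit several genes: not given in the sources used here.

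The deposited counts were fitted over all genes with edgeR 4.0.16 (R 4.3.3; quasi-likelihood test, TMM scaling, filterByExpr with a minimum count of 10), and p-values were adjusted by Benjamini-Hochberg over all genes tested, with calls at an adjusted p under 0.05. BRE-positive was compared with BRE-negative with the collection pair as a block, Smad1/5 KO with FL, and BRE-negative with FL, each without other groups in the fit. The labels say that reporter groups were collected as pairs; deviations of same-numbered libraries correlated at 0.768, 0.705 and 0.657. CPM values per library are the deposited counts scaled with TMM factors over all 12 libraries, while folds of summed counts in the imprinted block use the unscaled library totals. Nothing says whether KO or FL libraries come from separate cultures, so p-values measure only the spread between these libraries, which may be technical. The depth of 25862573 to 37319846 counts limits members with few counts, and exact intervals cover counting error only.

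Host genes, exon overlap, classes and sequences came from GENCODE M21, and near-identical copies from blastn 2.17.0. DESeq2 1.42.0, limma 3.58.1 on log2(TPM + 1) and other filters and left-out libraries were alternatives. The fits were run on simulated data with 200 changed genes. Those counts were drawn from the means and spread that each fit itself estimated, so they cannot show how well its model suits these libraries. Members and gene lists were chosen with earlier results of these data known. Named members are up to 10 called rises and 10 called falls per comparison with 1 direction in every pair or with groups that did not overlap, the 10 highest in TPM, every scaRNA, and a list of snoRNAs of ribosomal RNA processing and imprinted clusters; the other called members named in the text were chosen after their values were seen.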

Additional observations from a re-analysis of the deposited data

Results flagged for a closer look

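Among the 58 named members, 3 had 1 KO library set apart from the other 3 by most of the range of the group; chance gives this in about 1 of 20 groups of 4. For Gm24044 the gap was 0.967 of the range, with KO library 4 at 12.8 CPM against 11.5 to 11.6 CPM in the other KO libraries. For Snhg7 (the Snora43 RNA) it was 0.960, with KO library 1 at 60.3 CPM and the others at 79.0 to 79.7 CPM. For Snord107 it was 0.871, with KO library 3 at 4.90 CPM against 2.24, 2.36 and 1.98 CPM in KO libraries 1, 2 and 4.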

How the results depend on the processing

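The 15 members lower in BRE-positive cells became 0 with limma on log2(TPM + 1), on log2(TPM + 0.1) and without a filter, in 1 fit of all 12 libraries and without the pair block (no replicate block). Leaving out 1 collection gave 11 to 22 lower and 0 to 1 higher, against 68 to 1110 lower and 132 to 1115 higher over all genes. The 5 members higher in KO cells became 16 with DESeq2, 9 without a count filter, 3 with a filter at 1 CPM, 3, 0 and 0 with limma on log2(TPM + 1), on log2(TPM + 0.1) and without a filter, and 2 in 1 fit of all 12 libraries. Over all genes the count called higher, 294 at first, became 653, 377, 192, 39, 27, 32 and 196 in the same order. With the replicate number as a block, which the labels do not tie to a pairing of KO and FL libraries (correlations 0.326 and -0.504), the 5 members became 0, as did all genes. Deviations of KO libraries 1 and 2 correlated with FL library 1 (0.326 and 0.504), and those of KO libraries 3 and 4 with FL library 2 (0.489 and 0.458). With 2 FL libraries their deviations mirror each other, and a link to the parental lines was not tested. With that block the count in the third comparison became 58 higher and 14 lower, against 2877 and 3101 of all genes. Leaving out 1 library gave 0 to 8 higher and 0 to 1 lower in KO cells. Without KO libraries 3 and 4 there were 0 higher (26 of all 15536 genes). Without KO libraries 1 and 2 there were 29 higher and 20 lower (1546 and 1746 of all 15664 genes). Both fits were chosen after seeing the data. In the fit without KO libraries 1 and 2 Gm25395 turned to -0.94 (edgeR adjusted p = 0.0335). In BRE-negative against FL cells leaving out 1 library gave 28 to 62 higher and 12 to 25 lower, and a filter at 1 CPM gave 5 lower, since most of the imprinted block then fell below it. The cause of the other changes was not tested. Members with few counts, groups of 2 libraries and near-identical copies limit what these counts can show.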
